A study of Homo sapiens with 3 samples.

Results

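The 8 metallothionein genes MT1A, MT1E, MT1F, MT1G, MT1H, MT1M, MT1X and MT2A and the transcription factor gene MTF1 were followed in CAL27 cells and in 2 drug-resistant lines derived from them. These 9 genes were taken by their symbols from the 19220 genes of the count table. CAL27 is a human oral squamous cell carcinoma (OSCC) line, labelled WT, and was grown without drug. CAL27/5FU cells, labelled 5-fluorouracil resistant, were kept in 10 μM 5FU, an antimetabolite that blocks thymidylate synthesis. CAL27/OXA cells, labelled oxaliplatin resistant, were kept in 10 μM OXA, a platinum drug that crosslinks DNA. All 3 lines were cultured in high-glucose DMEM with fetal bovine serum, and whether a resistant line is 1 clone or a mixed population is not stated in the labels. Because CAL27 was grown without drug and each resistant line in its own drug, a resistant line and the drug in its medium cannot be told apart. For each line 1 RNA-seq library was analysed here, so that a ratio between lines has no replicate check.

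Metallothioneins are small cytoplasmic proteins in which cysteines hold zinc, copper and cadmium as metal-thiolate clusters, and they also bind platinum. Their genes are induced by zinc and other metals through MTF1, a zinc-finger factor that binds metal response elements (MREs) in their promoters, and some are also induced by glucocorticoids and oxidants. In keratinocytes MT2A and several MT1 genes are commonly expressed, whereas MT3 and MT4 are known from brain and from differentiating stratified epithelium.

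The 8 genes lie in 1 cluster on chromosome 16. In GENCODE 29 (GRCh38) the cluster runs over 119 kb from MT4 to MT1X, chr16:56565049-56684196, and holds 16 genes and pseudogenes, of which 11 are in the count table. From the centromere side the detected genes come in the order MT2A (chr16:56608199-56609497), MT1E (chr16:56625475-56627112), MT1M (chr16:56632233-56633986), MT1F (chr16:56657694-56660698) and MT1X (chr16:56682424-56684196), all on the plus strand. MT1A, MT1G and MT1H lie among them, and MT1G is the member on the minus strand of the cluster. MTF1 lies elsewhere, on the minus strand of chromosome 1 (chr1:37809567-37859620).

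Each of the 8 coding sequences has 186 nt over 3 exons, stop codon included, and codes for 61 residues, of which 20 are cysteines (32.8%). The coding sequences of the 4 genes that were past 2-fold in a resistant line are shown because their values in the libraries went in different directions although their coding sequences are nearly the same. They were read 5′ to 3′ from the GENCODE 29 transcripts, and the cysteine codons are in capitals.
MT2A: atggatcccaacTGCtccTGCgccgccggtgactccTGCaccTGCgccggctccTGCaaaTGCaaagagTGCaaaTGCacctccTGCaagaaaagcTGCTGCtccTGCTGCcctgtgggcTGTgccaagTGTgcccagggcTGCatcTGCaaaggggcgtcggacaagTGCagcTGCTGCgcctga
MT1E: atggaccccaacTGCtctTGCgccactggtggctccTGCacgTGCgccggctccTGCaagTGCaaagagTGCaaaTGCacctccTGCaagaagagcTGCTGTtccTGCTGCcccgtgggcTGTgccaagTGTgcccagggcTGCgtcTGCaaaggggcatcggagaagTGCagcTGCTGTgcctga
MT1X: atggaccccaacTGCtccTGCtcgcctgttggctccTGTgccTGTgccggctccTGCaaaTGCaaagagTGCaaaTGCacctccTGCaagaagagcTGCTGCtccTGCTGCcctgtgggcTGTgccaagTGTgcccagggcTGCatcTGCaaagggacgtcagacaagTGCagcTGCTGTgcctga
MT1M: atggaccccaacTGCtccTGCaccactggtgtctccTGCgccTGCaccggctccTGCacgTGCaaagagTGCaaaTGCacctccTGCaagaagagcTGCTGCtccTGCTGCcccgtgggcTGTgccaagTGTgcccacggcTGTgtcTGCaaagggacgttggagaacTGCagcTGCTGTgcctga
In every pair of the 8 genes all 20 cysteine codons stood at the same positions. MT2A and MT1X differed at 14 bases, which is 92.5% identity, and over all pairs the identity ran from 88.7% for MT1F and MT1X to 95.2% for MT1G and MT2A. MT1M had 6 lysine codons against 8 in MT2A, MT1E and MT1X.

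This likeness bears on how reads can be assigned to the genes. All 50-nt stretches of the coding transcript chosen for each gene were searched. Of these, 4.88% for MT2A, 5.34% for MT1E, 3.59% for MT1F and 7.05% for MT1M also occurred in a transcript of another gene. With stretches of 100 nt the share was 0 in these 4 genes. For MT1X the shares were 45.1% of the 50-nt and 19.1% of the 100-nt stretches. The transcripts of MT2A, MT1E, MT1F, MT1M and MT1X have 786, 704, 690, 829 and 450 nt. Lengths derived from counts and FPKM are 419, 506, 462, 440 and 404 nt in the same order. The shares depend on the transcript chosen, and the contrast of MT1X with the others may differ for the lengths counted. The 100-nt matches of MT1X were all to AC026461.1, a transcript that overlaps MT1X on the same strand and is not listed in the count table. Of the 181 shared 50-nt stretches of MT1X, 117 occurred in AC026461.1. The share of 45.1% is thus not a share with the other metallothionein genes alone. How the authors counted reads shared between genes is not given in the sources used here, so the values of MT1X are uncertain in this respect.

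Upstream sequences were available for 4 of the 9 genes, MT1H, MT1X, MT2A and MTF1. The core of the MRE, TGCACNC or TGCGCNC, was searched on both strands of the 250 bases before the RefSeq start (GRCh38.p14). MT1X had 4 cores, 3 of them on the strand of the gene. The 204 bases of its window that lie outside annotated exons (chr16:56682220-56682423, plus strand) are shown with the cores in capitals, since they hold all 4 cores of the gene that was lower in both resistant lines.
MT1X upstream: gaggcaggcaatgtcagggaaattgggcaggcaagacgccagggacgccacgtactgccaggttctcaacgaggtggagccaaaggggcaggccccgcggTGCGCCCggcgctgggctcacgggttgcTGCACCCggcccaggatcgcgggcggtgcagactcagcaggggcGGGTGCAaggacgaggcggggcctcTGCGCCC
MT2A had 7 cores, 5 of them on the strand of the gene. Because the MT2A window lies within the first exon of a longer GENCODE 29 transcript, only a stretch of 22 bases with 2 of its cores is shown (chr16:56608416-56608437, plus strand), again with the cores in capitals.
MT2A upstream: GTGTGCAgagccgggTGCGCCC
Of 35116 promoters searched in the same way, 24.8% had at least 1 core, 0.370% had at least 4 and 0.0313% had at least 7. MT1H had 8 cores, a number reached by 0.0171% of the promoters, and had no reads in any of the libraries. MTF1 had 0 cores in its window. A TATAAA motif began 29 bases before the start of MT2A and 30 bases before that of MT1X, and 10.7% of the promoters held this motif on either strand. These are matches of letters and no measure of binding.

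The 3 libraries of CAL27, CAL27/5FU and CAL27/OXA cells had 41786182, 37297713 and 43455488 counts. Between 15275 and 15407 genes had at least 1 count. Log2 ratios were computed from counts scaled with TMM factors (0.932, 1.05 and 1.02 in this order) and given a prior count of 2, and the ratios of the members stand with an exact 95% interval from their 2 counts (Clopper-Pearson), called the interval here. For other genes it is given in some cases with few reads. It covers counting error only and not the spread between cultures. A minimum of 10 counts on average over the libraries left 13676 tested genes, and a gene past 2-fold was called higher or lower. Both resistant lines were compared with the same CAL27 library, so that their ratios to it are not independent of each other. Levels of different genes were compared as FPKM, which are per length of transcript.

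Of the 9 genes, 6 passed the filter on counts and 3 were not detected. MT1A, MT1G and MT1H had 0 counts in all 3 libraries, where the floor of 3 counts corresponds to 0.0770 CPM (scaled counts relative to library size) in the parental library and to 0.0766 and 0.0675 in those of CAL27/5FU and CAL27/OXA. The genes MT1G and MT1H are abundant in liver and kidney in general, and at this depth no read was assigned to them in these cells. The other members were spread over a wide range of levels.

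MT2A, the most widely expressed metallothionein gene, was the most abundant member in each library. Its FPKM was 2846 in CAL27 and 4113 in CAL27/5FU, and it reached 10414 in CAL27/OXA. Among all genes of the library it ranked 5th by FPKM in CAL27, with 2nd in CAL27/5FU and 1st in CAL27/OXA cells. The counts behind these levels were 49847 in the parental line, 64295 in CAL27/5FU and 189646 in CAL27/OXA. MT2A alone thus took 0.119%, 0.172% and 0.436% of all counts in these libraries.

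**Figure D1:**
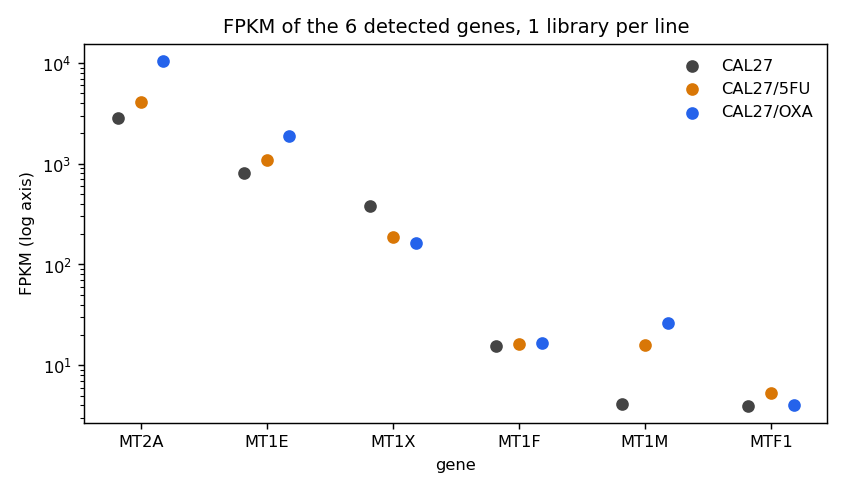
FPKM (log axis) of the 6 detected genes in the libraries of CAL27, CAL27/5FU and CAL27/OXA, 1 point per library and no error bar, since 1 library per line was analysed. MT2A goes from 2846 in CAL27 to 10414 in CAL27/OXA and MT1X from 380 in CAL27 to 187 and 164 in the resistant lines, and MT1A, MT1G and MT1H, at 0 in every library, are not drawn.

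MT2A was 3.34-fold higher in CAL27/OXA than in CAL27, with a log2 ratio of 1.74 (interval 1.72 to 1.75). Between CAL27/5FU and CAL27 the log2 ratio was 0.36 (0.34 to 0.38), which is within 2-fold. Set directly against CAL27/5FU, CAL27/OXA had 2.60-fold the MT2A level (log2 ratio 1.38, interval 1.37 to 1.39), and relative to the median of 48 genes around the cluster, described further on, this value was 0.79 and within 2-fold. CAL27/OXA thus stood highest and CAL27 lowest, and the step past 2-fold lay between CAL27/OXA and each of the other lines. The ratio of 0.36 in CAL27/5FU was near the median absolute log2 ratio of all tested genes in that comparison, 0.33.

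MT1E, an MT1 gene that codes for the same cysteine framework, was the member next in level. Its FPKM was 808 in CAL27 cells, 1094 in CAL27/5FU and 1890 in CAL27/OXA, which placed it at ranks 63, 21 and 8 among all genes. The counts were 17089, 20648 and 41567 in the same order. MT1E was 2.13-fold higher in CAL27/OXA than in CAL27 (log2 ratio 1.09, interval 1.07 to 1.12) and 1.20-fold higher in CAL27/5FU (log2 ratio 0.27, interval 0.24 to 0.30). Relative to the median of the genes around the cluster, the value in CAL27/OXA against CAL27 was 0.45 and within 2-fold. The order of the lines was the one seen for MT2A, with smaller ratios. The ratio of 0.27 in CAL27/5FU lay below the median absolute log2 ratio of 0.33 over all tested genes.

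MT1X went the other way. This gene, which lies at the far end of the cluster and is expressed in many tissues, had 6415 counts in CAL27, with 2813 in CAL27/5FU and 2876 in CAL27/OXA. Its FPKM was 380, 187 and 164, and its rank by FPKM went from 148 in CAL27 to 307 in CAL27/5FU and 385 in CAL27/OXA cells. The level in CAL27 was 2.29-fold that in CAL27/5FU (log2 ratio -1.20, interval -1.26 to -1.13) and 2.54-fold that in CAL27/OXA (log2 ratio -1.35, interval -1.41 to -1.28). Both resistant lines stood below the parental line, and the log2 ratio between them was -0.15 (interval -0.23 to -0.08).

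MT1M, a member with a low level in CAL27, showed the largest ratios to CAL27 of the 6 genes in both resistant lines. Its counts were 76 in the parental line, 258 in CAL27/5FU and 500 in CAL27/OXA, and the FPKM values were 4.13, 15.7 and 26.1. MT1M was 3.32-fold higher in CAL27/5FU (log2 ratio 1.73, interval 1.38 to 2.15) and 5.65-fold higher in CAL27/OXA (log2 ratio 2.50, interval 2.18 to 2.90). CAL27/OXA was 1.70-fold above CAL27/5FU, with an interval of the log2 ratio from 0.55 to 0.99. The small number of reads in CAL27 makes these intervals wide.

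MT1F, another MT1 gene, had nearly equal values in the 3 lines. The counts were 297 in CAL27 cells, 281 in CAL27/5FU and 331 in CAL27/OXA, and the FPKM values were 15.4, 16.3 and 16.5. The log2 ratio to CAL27 was -0.09 (interval -0.33 to 0.15) in CAL27/5FU and -0.03 (interval -0.26 to 0.20) in CAL27/OXA. Both intervals include 0 and leave out a 2-fold difference in either direction, and both signs turned when total counts alone or FPKM values were used.

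MTF1, the metal-sensing factor of these promoters, had 1324 counts in CAL27, with 1592 in CAL27/5FU and 1397 in CAL27/OXA cells. The FPKM values were 3.97, 5.35 and 4.03. Its log2 ratio was 0.26 (interval 0.15 to 0.37) in CAL27/5FU and -0.11 (interval -0.22 to -0.0025) in CAL27/OXA, and this second sign turned when total counts alone or FPKM values were used. The mRNA of MTF1 stayed within 2-fold in all comparisons.

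**Figure D2:**
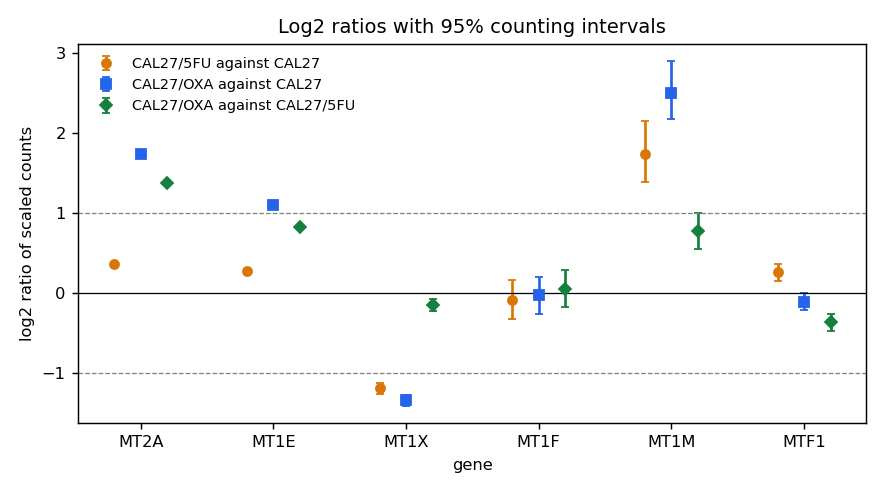
Log2 ratios of scaled counts (vertical axis) of the 6 detected genes in the 3 comparisons, with exact 95% counting intervals as bars and dashed lines at 2-fold. MT2A (1.74), MT1E (1.09) and MT1M (2.50) lie above 2-fold in CAL27/OXA against CAL27, MT1X lies below it in both resistant lines (-1.20 and -1.35), and MT1F and MTF1 lie near 0.

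In CAL27/5FU against CAL27, 1 of the 6 tested members (MT1M) was higher and 1 (MT1X) was lower. Over all 13676 tested genes, 8.46% were higher and 6.72% were lower. The median log2 ratio of the members was 0.26, beside -0.0035 over all genes. In CAL27/OXA against CAL27, 3 of the 6 members (MT2A, MT1E and MT1M) were higher and 1 (MT1X) was lower, where 6.54% of all genes were higher and 9.28% were lower. With total counts alone as the scaling, this split turned from 894 higher and 1269 lower genes to 1100 and 1052. The member median was 0.53, beside 0.0055 over all genes. In CAL27/OXA against CAL27/5FU, 1 of the 6 members (MT2A) was higher and 0 were lower, with 4.18% of all genes higher and 8.38% lower, and the medians were 0.41 for the members and 0.0079 for all genes. For each of these calls of a member the whole interval was past 2-fold. Relative to the genes around the cluster, the calls of MT1E in CAL27/OXA against CAL27 and of MT2A in CAL27/OXA against CAL27/5FU were lost. No replicated test could be made, and with 6 members the counts are small.

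The reads of the 8 metallothionein genes were also summed. The sum was 73724 counts in the parental line, 88295 in CAL27/5FU and 234920 in CAL27/OXA, which is 0.176%, 0.237% and 0.541% of the library. CAL27/OXA had 2.79-fold the summed metallothionein reads of CAL27 (log2 ratio 1.48, interval 1.47 to 1.49), or 1.79-fold relative to the genes around the cluster, and CAL27/5FU had 1.19-fold (log2 ratio 0.25, interval 0.24 to 0.27). For the 7 MT1 genes without MT2A, the fold over CAL27 was 1.00 in CAL27/5FU and 1.66 in CAL27/OXA. As a log2 ratio the value in CAL27/OXA was 0.73 (interval 0.71 to 0.76), beside a median of 0.65 of the 48 genes around the cluster. In CPM, MT1E went from 439 in CAL27 to 528 in CAL27/5FU, MT1X from 165 to 71.9 and MT1M from 1.95 to 6.59. The fold of 1.00 for this sum thus joins a higher MT1E and a lower MT1X. The value of the sum in CAL27/OXA likewise joins MT1E (log2 ratio 1.09) and MT1M (2.50) with MT1F (-0.03) and MT1X (-1.35).

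The make-up of the metallothionein transcripts differed between the lines as well. By FPKM, MT2A made up 70.2% of the family in CAL27 cells, 75.8% in CAL27/5FU and 83.2% in CAL27/OXA. MT1X made up 9.37%, 3.44% and 1.31%. MT1E made up 19.9% in CAL27, 20.2% in CAL27/5FU cells and 15.1% in CAL27/OXA. MT1F and MT1M together stayed below 1% of the family in every library.

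**Figure D3:**
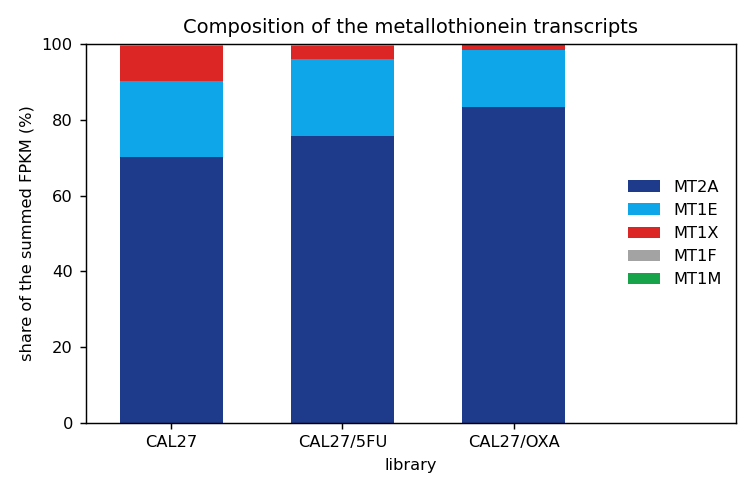
Share (%) of each gene in the summed FPKM of the metallothionein genes, 1 stacked bar per library. The MT1X share is 9.37% in CAL27, with 3.44% in CAL27/5FU and 1.31% in CAL27/OXA, and the MT2A share is 70.2%, 75.8% and 83.2%.

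Ratios between genes of the same library do not depend on how libraries are scaled. The FPKM of MT2A was 7.49 times that of MT1X in CAL27 (interval 7.30 to 7.69), 22.0 times in CAL27/5FU (21.2 to 22.9) and 63.6 times in CAL27/OXA (61.3 to 66.0). The 3 intervals do not overlap. MT2A stood at 3.52 times MT1E in CAL27, 3.76 times in CAL27/5FU and 5.51 times in CAL27/OXA, a smaller span. The order MT2A, MT1E, MT1X held in every library. Below these, the order of MT1M and MTF1 in CAL27 (ratio 1.04, interval 0.81 to 1.31) and that of MT1M and MT1F in CAL27/5FU (ratio 0.96, interval 0.81 to 1.15) could not be told at this depth, while in CAL27/OXA MT1M exceeded MT1F 1.59-fold (1.38 to 1.83).

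Of 14 further names, pseudogenes included, 5 were in the count table, and the others were not analysed here. MT1B had 1 count in the parental line, 2 in CAL27/5FU and 0 in CAL27/OXA. MT3, the brain-enriched form, had 2, 2 and 0 counts, all at or under the floor, and MT4 and MT1HL1 had 0 counts in every library. TESMIN, a testis-associated gene outside the cluster on chromosome 11, had 521, 561 and 337 counts.

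Tested genes on both sides of the cluster, 9 in all, were read in the same libraries. Before the cluster lie BBS2, OGFOD1, NUDT21 and GNAO1, and after it lie NUP93, HERPUD1, CETP, NLRC5 and CPNE2. None of these codes for a metallothionein. Their median log2 ratio was 0.24 in CAL27/5FU and 0.75 in CAL27/OXA against CAL27, and 0.51 in CAL27/OXA against CAL27/5FU. In CAL27/OXA 8 of the 9 stood above 0, from 0.31 for HERPUD1 to 1.36 for CPNE2, and GNAO1 stood at -2.38. GNAO1 had 404 counts in CAL27 cells, 54 in CAL27/5FU and 87 in CAL27/OXA. NUP93, a nuclear pore gene and the first tested gene after MT1X, had 4272, 5071 and 9607 counts and a log2 ratio of 0.98 in CAL27/OXA.

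A wider window, which holds these neighbours as well, was added after they were seen. Of the 48 tested genes within 5 Mb of the cluster, 43 (89.6%) stood above 0 in CAL27/OXA against CAL27, with a median log2 ratio of 0.65. Over all tested genes 50.5% stood above 0 in this comparison, and 48.8% of the other tested genes of chromosome 16. In CAL27/5FU 24 of the 48 were above 0, with a median of 0.0020. The other 563 tested genes of chromosome 16 had medians of -0.03 in CAL27/OXA and -0.0064 in CAL27/5FU. Relative to the median of this window, the log2 ratios in CAL27/OXA were 1.09 for MT2A, 0.45 for MT1E, 1.85 for MT1M, -0.68 for MT1F and -1.99 for MT1X, and 0.84 for the summed reads. MT1E was then within 2-fold, and MT2A, MT1M and MT1X were still past it. In CAL27/5FU against CAL27 the same step moved each value by 0.0020. In CAL27/OXA against CAL27/5FU, where the window median was 0.59, MT2A stood at 0.79 relative to it and was then within 2-fold. The part of the upward shift of this region in the metallothionein values was not tested.

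**Figure D4:**
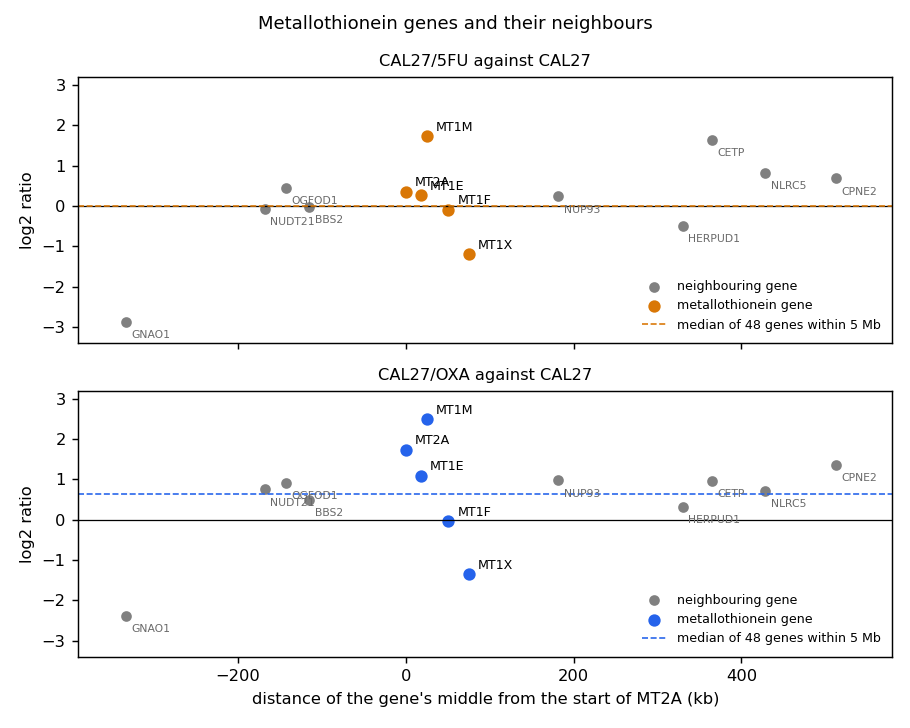
Log2 ratio against CAL27 of the 5 detected metallothionein genes (coloured) and 9 neighbouring tested genes (grey), by the distance in kb of the middle of each gene from the start of MT2A, for CAL27/5FU (upper panel) and CAL27/OXA (lower panel). The dashed line, the median of the 48 tested genes within 5 Mb, is at 0.65 in CAL27/OXA and at 0.0020 in CAL27/5FU, and MT1X lies below it in both panels.

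Zinc leaves the cytosol through the SLC30 transporters. Of 10 exporter genes, 6 were tested and 0 were past 2-fold in any of the comparisons, with medians of 0.31 in CAL27/5FU and 0.19 in CAL27/OXA, beside -0.0035 and 0.0055 over all tested genes. The shares of all genes past 2-fold given above (8.46% and 6.72%, 6.54% and 9.28%, 4.18% and 8.38%) are also the background for the calls in this and the following lists. SLC30A1, the plasma membrane exporter and a known MTF1 target, had 449 counts in CAL27, with 830 in CAL27/5FU and 565 in CAL27/OXA. Its log2 ratio was 0.88 in CAL27/5FU and 0.14 in CAL27/OXA. SLC30A10 had 18, 4 and 0 counts and did not pass the filter.

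Zinc enters through the SLC39 transporters, of which 12 of 14 were tested. In CAL27/5FU 1 was higher, SLC39A11 (log2 ratio 1.04), and 0 were lower. In CAL27/OXA 0 were higher and 2 were lower, SLC39A2 (18 counts in CAL27 and 1 in CAL27/OXA, log2 ratio -2.84, interval -9.74 to -1.70) and SLC39A4, the importer of dietary zinc (393 and 183 counts, log2 ratio -1.28). Against CAL27/5FU, CAL27/OXA had 4 lower importers, namely SLC39A2 (-2.21, interval -9.07 to -0.86), SLC39A4 (-1.29), SLC39A8 (-1.27) and SLC39A11 (-1.01). SLC39A14 and SLC39A10 differed little, with log2 ratios of 0.10 and 0.37 in CAL27/5FU and 0.12 and 0.27 in CAL27/OXA. The medians of the importers were 0.10 in CAL27/5FU and 0.04 in CAL27/OXA.

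Genes outside the family that are linked to MTF1 were listed as well, and SLC30A1, SLC30A10 and SLC39A10 from the transporter lists are again among them. The list does not separate its genes by the direction of their link to MTF1. Of 9 listed genes 7 were tested, and in CAL27/5FU 0 were higher and 3 were lower, with a median of -0.39. These were PGF, a placental growth factor gene (189 counts in CAL27 and 29 in CAL27/5FU, log2 ratio -2.63), CEBPA, a differentiation factor (359 and 140, -1.35), and the iron exporter SLC40A1 (10 and 4, -1.02). The interval of SLC40A1, -3.46 to 0.46, includes 0. SLC30A1 (0.88) and SLC39A10 (0.37) stood above 0 in CAL27/5FU, and the other tested genes of the list below it. In CAL27/OXA 0 were higher and 1 was lower, CEBPA with 27 counts (log2 ratio -3.82), and the median was 0.14. Against CAL27/5FU, CAL27/OXA had SLC40A1 (1.96) and PGF (1.66) higher and CEBPA (-2.46) lower. SLC40A1 rested on 4 counts in CAL27/5FU and 24 in CAL27/OXA, and its interval, 0.86 to 4.39, was not wholly past 2-fold.

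Copper, which metallothioneins also bind, is handled by 10 listed genes, all tested. In CAL27/5FU 0 were past 2-fold, and in CAL27/OXA 1 was lower, SCO2, a chaperone for cytochrome oxidase (155 and 76 counts, log2 ratio -1.19). SCO2 was also the 1 gene lower against CAL27/5FU (-1.78). The copper importer SLC31A1 had log2 ratios of -0.02 in CAL27/5FU and -0.10 in CAL27/OXA, ATP7A had -0.39 and -0.38, and ATP7B had 0.46 and -0.28. The medians were -0.16 in CAL27/5FU and -0.19 in CAL27/OXA.

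Metals and oxidants also induce heat-shock and antioxidant genes, and 16 of these were tested. In CAL27/5FU 0 were higher and 2 were lower, the chaperone genes HSPA1A (log2 ratio -1.63) and HSPB1 (-1.90). In CAL27/OXA 1 was higher, SLC7A11, the cystine transporter that feeds glutathione synthesis (1748 and 6260 counts, log2 ratio 1.65). In the same comparison 4 were lower, namely HSPA1A (-1.74), HSPA1B (-1.32), HSPB1 (-1.81) and HSF1, the heat-shock factor (-1.03). HSPA1A had 10397 counts in the parental line, 3364 in CAL27/5FU and 3541 in CAL27/OXA. HSPA1A and HSPA1B are near-identical copies, so that reads may be split between them. Among the antioxidant genes, the log2 ratios in CAL27/5FU and CAL27/OXA were 0.81 and 1.65 for SLC7A11, 0.50 and 0.64 for SRXN1, 0.56 and 0.50 for TXNRD1, 0.36 and 0.59 for GCLM, and -0.42 and -0.63 for the heme oxygenase gene HMOX1. Apart from SLC7A11 in CAL27/OXA, these were within 2-fold. The medians of the list were -0.46 in CAL27/5FU and -0.48 in CAL27/OXA, and 0 of the 16 were past 2-fold between the resistant lines.

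The glucocorticoid response was read because glucocorticoids can induce MT2A. Of 12 genes 11 were tested, and in each resistant line 0 were higher and 2 were lower than in CAL27. TSC22D3, a strongly glucocorticoid-induced gene, had 3469 counts in CAL27 cells, 885 in CAL27/5FU and 1134 in CAL27/OXA, with log2 ratios of -1.98 and -1.80. CDKN1C, a cell-cycle inhibitor, had 40, 13 and 20 counts, with log2 ratios of -1.50 (interval -2.66 to -0.70) and -1.11 (interval -2.04 to -0.38). The receptor gene NR3C1 had log2 ratios of -0.24 and 0.03. ERRFI1 was the 1 gene past 2-fold between the resistant lines, at -1.16 in CAL27/OXA against CAL27/5FU. The medians of the list were -0.44 in CAL27/5FU, -0.77 in CAL27/OXA and 0.27 between the resistant lines.

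**Figure D5:**
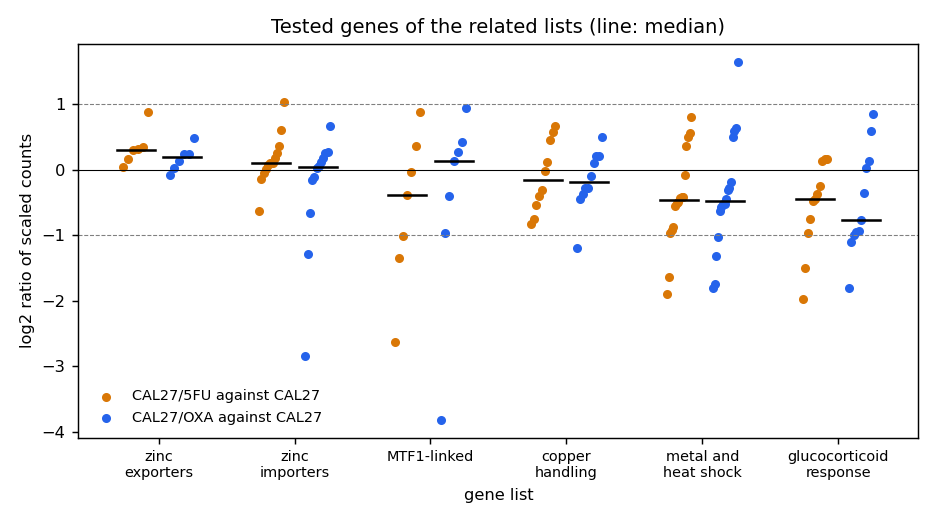
Log2 ratio against CAL27 of each tested gene of 6 lists of metal-handling, stress and glucocorticoid genes, 1 point per gene, for CAL27/5FU and CAL27/OXA, with black lines at the list medians and dashed lines at 2-fold. No zinc exporter is past 2-fold, and the medians of the metal and heat-shock list are -0.46 and -0.48.

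Genes with values most like those of 2 members were looked up among the 11534 genes that averaged 100 counts or more, by the distance between pairs of log2 ratios to CAL27 over the 3 libraries. Nearest to MT2A were COL8A2, a collagen gene (log2 ratios 0.42 and 1.76, distance 0.065), then BCAM, EFCAB1, MICALCL and SH2D5, at distances up to 0.27. Nearest to MT1X were AHDC1 (log2 ratios -1.21 and -1.34, distance 0.015), YEATS2, PABPC1, PLD1 and PTDSS1, at distances up to 0.06. With 2 ratios per gene, which share a control, such likeness is a description.

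As a check of the cell label, CAL27 expressed the squamous keratin genes KRT5 and KRT14, at 286124 and 58222 counts. KRT5 had 46083 counts in CAL27/5FU and 72716 in CAL27/OXA, with log2 ratios of -2.64 and -2.17. KRT14 had 948 and 8423 counts, with log2 ratios of -5.94 and -2.98. The summed level of 10 squamous epithelial markers was 15498 CPM in the parental line and 3851 and 5277 in CAL27/5FU and CAL27/OXA. Of the 10, 8 were lower in CAL27/5FU and 6 in CAL27/OXA. KRT5, KRT14, KRT6A, KRT17, DSP and DSG3 were lower in both lines, and TP63 and SFN in CAL27/5FU. CDH1 (log2 ratios -0.14 and -0.16) and EPCAM (0.39 and 0.03) were within 2-fold in both lines. In CAL27/OXA against CAL27/5FU 3 of the 10 were higher and 1 was lower. Since the RNA is from bulk cultures, fewer cells of a type and less RNA per cell cannot be told apart. Of 8 leukocyte markers 2 passed the filter, CD68 and CD14, of which CD14 was higher in CAL27/5FU (1.01) and lower in CAL27/OXA (-1.09), and PTPRC had 2, 0 and 0 counts. The summed leukocyte level was 97.4, 80.0 and 122 CPM in the 3 libraries. Of 8 fibroblast markers 4 were tested and 2 were higher in each resistant line (COL1A2 and LUM), with COL3A1 and THY1 at 0 counts. The other tested markers were within 2-fold. COL1A1 had 1387, 1068 and 1050 counts, with log2 ratios of -0.38 in CAL27/5FU and -0.59 in CAL27/OXA. PDGFRB had log2 ratios of 0.62 and 0.89. The fibroblast sums were 41.9, 47.2 and 50.1 CPM. Of 6 endothelial markers 4 were tested, with 2 higher in each resistant line, CDH5 and CLDN5. CLDN5 had 2, 8 and 31 counts and an interval in CAL27/5FU of -0.33 to 5.27. In CAL27/5FU 1 was lower, VWF (44 counts in CAL27 and 19 in CAL27/5FU, interval -2.08 to -0.41). EMCN had 0 counts, and the endothelial sums were 2.62, 9.56 and 5.40 CPM. The part of the lower squamous markers in the metallothionein values was not tested.

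The metallothionein genes were also set beside other short genes. The 148 tested genes with a derived length under 600 nt had median log2 ratios of -0.29 in CAL27/5FU, -0.01 in CAL27/OXA and 0.24 between the resistant lines. The 5 detected metallothionein genes have derived lengths from 404 to 506 nt and belong to this class, while MTF1, at 7974 nt, does not. In CAL27/5FU, where the class median was below 0, MT1X stood at -1.20, MT1F at -0.09, MT1E at 0.27, MT2A at 0.36 and MT1M at 1.73. In CAL27/OXA, where it was near 0, MT1X stood at -1.35, MT1F at -0.03, MT1E at 1.09, MT2A at 1.74 and MT1M at 2.50. The part of transcript length in these values was not tested.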

How the data were processed

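RNA-seq was analysed for the lines CAL27, CAL27/5FU and CAL27/OXA with 1 library each, made from total RNA and NEBNext Ultra libraries. The authors deposited a table of read counts per gene symbol, which are not normalized, and a table of FPKM values. Per the labels' processing notes, CASAVA 1.8 and HISAT2 2.0.5 were used with GRCh38. The counting tool, the annotation and the strandedness are not given in the sources used here. For 14367 of 14367 genes with counts in all libraries, counts, deposited FPKM and library totals gave a single length within 0.1%, so FPKM are scaled by total counts. Each table has a further 3 columns of per-sample values without a sample label, which were not used.

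The members and the gene lists were chosen with earlier results of these data known. Counts were scaled with TMM factors in edgeR 4.0.16 (R 4.3.3), and 2 was the prior count. Genes that averaged 10 counts or more were tested, and past 2-fold was called. With 1 library per line no p-value was computed. Intervals are exact 95% Clopper-Pearson intervals on pairs of counts, and the floor is 3 counts. The computation was tested on simulated data. Alternatives were scaling by total counts, by the upper quartile or by DESeq2 1.42.0 size factors, other filters and prior counts, FPKM with pseudocounts of 1 and 0.1, 1.5-fold and the whole interval past 2-fold.

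The genes named were the 9 members, further metallothionein genes with at least 1 count, genes of the lists past 2-fold in a comparison, and SLC30A1, SLC39A10, SLC39A14, ATP7A, ATP7B, SLC31A1, HMOX1, HSPA1A, NR3C1 and TSC22D3 in any case. To these came the 5 nearest tested genes on each side of the cluster, of which 1 is not reported here, and the 5 genes nearest in ratios to MT2A and to MT1X. Markers named for their absence, the epithelial markers CDH1 and EPCAM, the fibroblast markers COL1A1 and PDGFRB and the antioxidant genes SRXN1, TXNRD1 and GCLM were picked after their values were seen. Positions and coding sequences came from GENCODE 29 (GRCh38), and upstream sequences from RefSeq (GRCh38.p14), matched by symbol for 4 of 9 genes.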

Additional observations from a re-analysis of the deposited data

Results flagged for a closer look

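MTF1 was on opposite sides of CAL27 in the 2 resistant lines, with a log2 ratio of 0.26 in CAL27/5FU and of -0.11 in CAL27/OXA, and both counting intervals leave out 0. The difference between the lines was not tested against replicates, since 1 library per line was used. The sign in CAL27/OXA turned when total counts alone or FPKM values were used. Over all tested genes the median absolute log2 ratio was 0.33 in CAL27/5FU and 0.34 in CAL27/OXA, so both MTF1 ratios were smaller than that.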

How the results depend on the processing

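No member changed its side of 2-fold under any of the alternatives of scaling, filter, prior count or unit listed under the processing, and no called value changed sign. MT1F in both lines and MTF1 in CAL27/OXA changed sign under total counts alone and both FPKM settings. Scaling by total counts put the all-gene median at 0.17 in CAL27/5FU and 0.14 in CAL27/OXA, and the members shifted with it. The member median then was 0.43 in CAL27/5FU and 0.66 in CAL27/OXA, and the summed reads had log2 ratios of 0.42 and 1.62 against CAL27 and 1.19 between the resistant lines. Higher genes were then 67.2% of the calls in CAL27/5FU in place of 55.7%, and 51.1% in CAL27/OXA in place of 41.3%. The upper quartile gave sums of 0.30, 1.51 and 1.21. FPKM with a pseudocount of 1 gave member medians of 0.39 and 0.66, sums of 0.42, 1.63 and 1.21, and 503 higher and 311 lower genes in CAL27/5FU, 368 and 481 in CAL27/OXA and 165 and 437 between the resistant lines. A pseudocount of 0.1 gave medians of 0.43 and 0.66 and sums of 0.42, 1.63 and 1.21. Without the filter, 1899 genes were higher and 1555 lower in CAL27/5FU, 1348 and 1925 in CAL27/OXA, and 981 and 1861 between the resistant lines, because more genes were tested. With a mean of at least 50 counts, 760 were higher in CAL27/5FU and 369 between the resistant lines. At 1.5-fold the numbers were 2084 and 1921, 1925 and 2330, and 1401 and 2060, and 3 members in place of 1 were higher in CAL27/OXA against CAL27/5FU. With the whole interval past 2-fold, 749 were higher and 593 lower in CAL27/5FU, 526 higher in CAL27/OXA, and 319 and 709 between the resistant lines. Relative to the median of the genes within 5 Mb, an alternative chosen after seeing the data, the sum was 0.84 in CAL27/OXA against CAL27 and 0.64 against CAL27/5FU, and MT1E in CAL27/OXA against CAL27 and MT2A in CAL27/OXA against CAL27/5FU were within 2-fold. Apart from what the construction of an alternative shows, the cause was not tested. No paired analysis was possible because 1 labelled library per line was analysed. Depth limits MT1M most, with 76 counts in CAL27.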
